A study of Mus musculus with 18 samples.

Results

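10 genes used as marks of intestinal stem cells were followed in the ileum of mice after an allogeneic bone marrow transplant. They were Lgr5, Rnf43, Axin2, Ascl2, Sox9, Olfm4, Smoc2, Prom1, Lrig1 and Bmi1. They were picked by symbol from genes known to mark these cells, with earlier results of these arrays known, and all 10 were measured, of 22180 genes in all. A gene was read from the probe set annotated with its symbol alone, and from the probe set with the highest mean over the 18 arrays where there were several, as for Lgr5 and Axin2. Prom1 was lower in every mouse given T cells than in every mouse given marrow alone. Lgr5 was lower by a smaller amount, in a call that depended on the processing, and the other 8 did not pass the test in any comparison over the 18 mice.

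The 18 mice, 1 array each, were B10.BR recipients of C57Bl/6 cells, aged 8 to 12 weeks at transplant, and their ileum was taken on day 21. All of them received 11 Gy of total body irradiation the day before transplant and 5000000 bone marrow cells depleted of T cells. The T cell ICA group (n = 5) also received 2000000 purified T cells of the donor strain, the cause of graft-versus-host disease in this model, and a daily gavage of 150 mg/kg ICA (indole-3-carboxaldehyde, an indole derived from tryptophan). The T cell vehicle group (n = 4) received the same T cells and the vehicle, a mixture of DMSO, PEG400 and citric acid. The marrow-only ICA group (n = 5) received marrow and ICA, and the marrow-only vehicle group (n = 4) received marrow and vehicle. Gavage began the day before transplant and was daily in all 4 groups. The labels call the mice of a group biological replicates, and no group is untransplanted or unirradiated, so the levels of a normal ileum were not measured.

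Stem cells sit at the base of the intestinal crypts between Paneth cells and divide to renew the epithelium. Wnt ligands bind Frizzled receptors on these cells, and R-spondins strengthen the signal by binding Lgr receptors and so removing Rnf43 and Znrf3, the ubiquitin ligases that take Frizzled off the surface. The signal stabilises beta-catenin, which acts with TCF factors on targets such as Lgr5, Axin2 and Ascl2. Some stem cell genes are narrow marks of the crypt base, whereas Prom1, Sox9 and Lrig1 are also found in progenitors, and Prom1 in other epithelia.

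The deposited values are log2 array signals. Array medians lay between 6.47 and 6.51, and 3 arrays had the lowest values of the 18 on the second principal component, at -19.8 for T cell ICA mouse 1, -20.5 for marrow-only ICA mouse 1 and -19.5 for marrow-only vehicle mouse 3, with the next array at -10.1. These 3 also lay between the grafts on the first component, at 1.10, -0.73 and -0.36 in that order. The other T cell mice lay at 11.3 to 18.8 and the other marrow-only mice at -22.8 to -9.96. A fit without these 3 leaves out the mice least separated by graft on that component, so it is not a neutral check. Counts of calls that changed without these 3 are given beside the results. Without them 1515, 664 and 2493 of all genes were called for T cells against marrow only under ICA, under vehicle and for the mean of both, against 693, 327 and 1599 with them. List counts without these 3 are to be set against 1515, 664 and 2493, not against the shares of all genes given for the 18 mice. T cell vehicle mouse 1 also lay apart from its own group on that component, at -8.38 against 5.76 to 9.87 in the other mice of the group, and the members were fitted without it too. Markers of the labelled tissue were well represented, the mean of 10 epithelial genes lying between 11.13 and 11.26 in T cell ICA mice, 11.17 and 11.28 in T cell vehicle mice, 11.18 and 11.30 in marrow-only ICA mice and 11.19 and 11.28 in marrow-only vehicle mice. These ranges of the list mean overlap between the groups, and 1 of the 10 genes, Elf3, was lower in T cell mice in all 3 comparisons of T cells with marrow only. In a piece of whole ileum, fewer cells of a type and less RNA per cell cannot be told apart. Levels are tested between mice for 1 gene, not between genes, since probe sets differ in brightness. Where levels or changes of different genes are set side by side, as for Bmi1 and Prom1, this is a description. On these arrays the number of mice limits the precision.

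T cells against marrow only were compared under ICA, under vehicle and as the mean of both, and ICA against vehicle in each kind of graft, by limma over all genes with Benjamini-Hochberg adjustment. A gene was called at an adjusted p under 0.05. The 3 comparisons of T cell mice share mice, as do the others, so they are given side by side.

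Prom1 encodes prominin-1, also known as CD133, a membrane protein of cell surface protrusions that marks crypt base and progenitor cells. RefSeq lists 2 transcription start sites for it in the table used here, and both promoters (250 bases before the start and 50 after, build GRCm38.p6, minus strand) are printed because Prom1 carries the main difference. Capitals mark the TCF motif CTTTGA, searched on both strands.
Prom1 promoter at chr5:44101687-44101986: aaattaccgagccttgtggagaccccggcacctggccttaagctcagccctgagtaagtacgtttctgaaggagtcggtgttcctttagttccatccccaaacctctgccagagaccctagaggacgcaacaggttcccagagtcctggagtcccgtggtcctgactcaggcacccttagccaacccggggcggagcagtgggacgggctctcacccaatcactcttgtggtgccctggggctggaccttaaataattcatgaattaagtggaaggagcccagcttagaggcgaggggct
Prom1 promoter at chr5:44094719-44095018: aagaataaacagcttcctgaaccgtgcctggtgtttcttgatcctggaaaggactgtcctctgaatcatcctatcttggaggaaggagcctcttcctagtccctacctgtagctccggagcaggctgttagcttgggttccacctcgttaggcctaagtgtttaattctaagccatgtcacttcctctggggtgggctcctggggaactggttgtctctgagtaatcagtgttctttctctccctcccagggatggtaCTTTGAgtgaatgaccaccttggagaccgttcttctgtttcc
The motif began 9 bases after the start in the second promoter and was not in the window of the first. Among all 32851 promoters, 16.0% held it, so a match in 1 of these 2 windows is a description only. Of the 10 genes, 7 had entries, with 9 promoters, and 1 of the 9 held CTTTGA and 0 held the E-box CAGCTG, which 16.3% of all promoters held.

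Prom1 had log2 levels of 8.93, 8.71, 8.86, 8.86 and 8.68 in T cell ICA mice, against 9.30, 9.54, 9.78, 9.68 and 9.81 in marrow-only ICA mice. It had 8.81, 8.89, 8.75 and 8.85 in T cell vehicle mice, against 9.35, 9.65, 9.17 and 9.72 in marrow-only vehicle mice. The highest T cell mouse lay below the lowest marrow-only mouse under both treatments. Groups that do not overlap in this direction were found for 2.17% of all genes under ICA and 4.21% under vehicle, and for 0.446% when the 9 T cell mice were set against the 9 marrow-only mice.

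**Figure D1:**
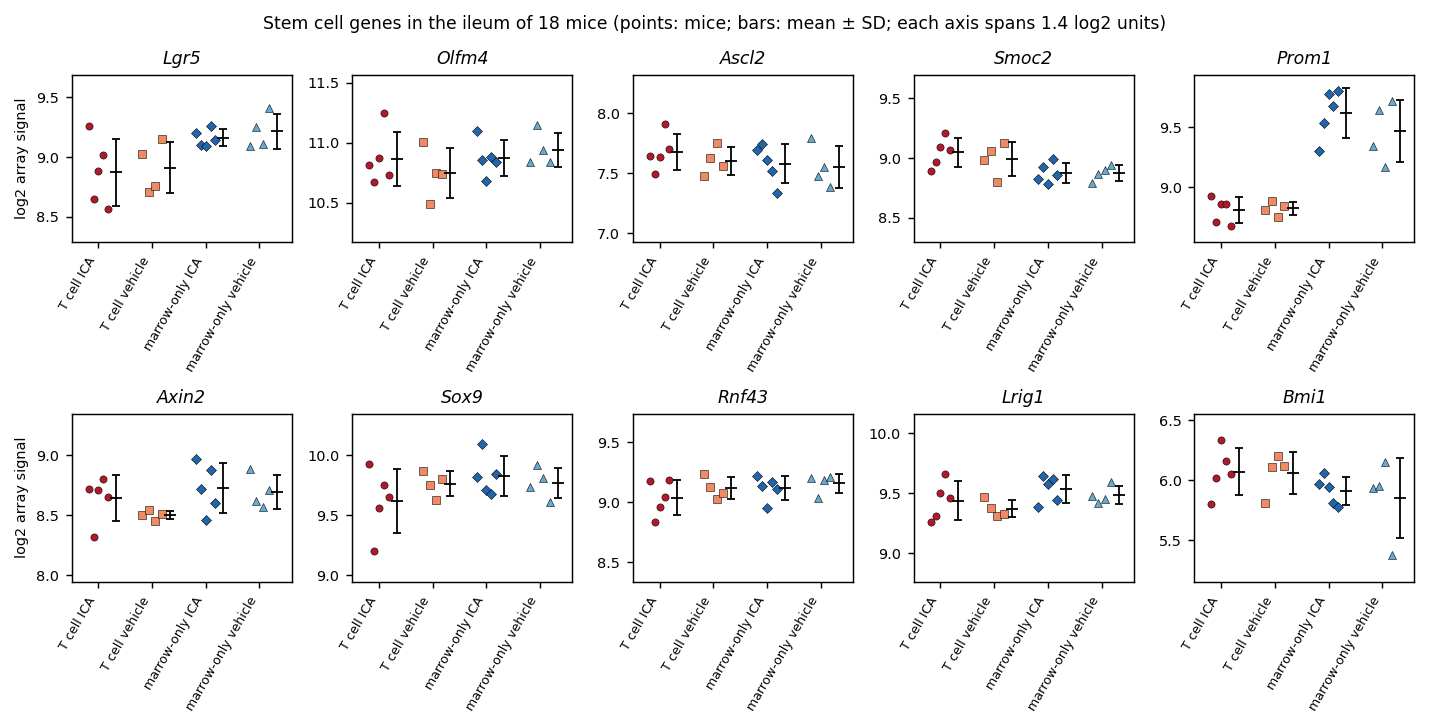
Log2 array signal (y axis, 1.4 log2 units in every panel) of the 10 stem cell genes in the 18 mice, by group. Points are mice and bars are the mean ± SD; the Prom1 points of the T cell groups sit between 8.68 and 8.93, below all marrow-only points, and of the other genes only Axin2 under vehicle has groups that do not overlap.

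Prom1 was lower by 0.81 ± 0.10 log2 (SE, 95% interval of the difference -1.03 to -0.60, adjusted p = 0.000232) in T cell ICA mice than in marrow-only ICA mice, which is 1.76-fold lower. The fall was 0.65 ± 0.12 under vehicle (-0.89 to -0.40, adjusted p = 0.00703, 1.57-fold lower). As the mean of both treatments it was 0.73 ± 0.08 (adjusted p = 1.09e-05, 1.66-fold lower) and all 9 T cell mice lay below all 9 marrow-only mice. It ranked 15th by p among the 22180 genes under ICA, 58th under vehicle and 17th for the mean. Of the 10 members 1 was called under ICA and 1 under vehicle, both times Prom1 and both times lower, against 3.12% and 1.47% of all genes called in either direction and 2.07% and 0.681% called lower. Leaving out the 3 arrays moved the 2 differences to -0.92 and -0.75, and leaving out T cell vehicle mouse 1 as well gave -0.92 and -0.74. The 3 held the highest Prom1 of T cell ICA mice (8.93) and the lowest of marrow-only ICA (9.30) and marrow-only vehicle mice (9.17). Their omission therefore had to widen both differences. Prom1 kept its call under each of 31 other settings in both comparisons (highest adjusted p = 0.0396).

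The Wnt receptor and feedback genes come next. Lgr5, the R-spondin receptor that defines dividing crypt base stem cells, had 9.26, 8.65, 8.88, 9.01 and 8.57 in T cell ICA mice, against 9.20, 9.10, 9.09, 9.26 and 9.14 in marrow-only ICA mice. It had 9.02, 8.71, 8.76 and 9.15 in T cell vehicle mice, against 9.09, 9.25, 9.11 and 9.41 in marrow-only vehicle mice. T cell ICA mouse 1, one of the 3 arrays low on the second component, was as high as the highest marrow-only ICA mouse, and the groups overlapped under both treatments. Lgr5 varied more in T cell ICA mice (SD 0.28) than in marrow-only ICA mice (SD 0.07), a difference in spread that was not tested.

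Lgr5 differed by -0.29 ± 0.11 under ICA (adjusted p = 0.196) and by -0.30 ± 0.13 under vehicle (adjusted p = 0.289), neither of which passed. The mean of both treatments passed, with a fall of 0.29 ± 0.08 (95% interval of the difference -0.47 to -0.12, adjusted p = 0.0395, 1.23-fold lower), where 7.21% of all genes were called. That call held in 17 of 30 other settings (difference -0.37 to -0.20). It was lost without T cell ICA mouse 2, 3 or 5, T cell vehicle mouse 2 or 3, marrow-only ICA mouse 4 or 5, or marrow-only vehicle mouse 2 or 4, one at a time, at differences of -0.30 to -0.26 and adjusted p of 0.0584 to 0.0951. In the ICA comparison Lgr5 was called only without T cell ICA mouse 1 (-0.38, adjusted p = 0.0460). Without the 3 arrays the differences were -0.37 under ICA (adjusted p = 0.0506), -0.34 under vehicle (adjusted p = 0.155) and -0.35 for the mean (adjusted p = 0.00715), and without T cell vehicle mouse 1 as well the mean gave -0.37 (adjusted p = 0.00753). A second Lgr5 probe set, with a mean of 6.71 and a correlation of 0.42 with the one used, averaged 6.71, 6.58, 6.76 and 6.75 in T cell ICA, T cell vehicle, marrow-only ICA and marrow-only vehicle mice. Taking the mean of both probe sets gave -0.20 (adjusted p = 0.0746).

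Rnf43, the ubiquitin ligase that clears Frizzled receptors, ranged from 8.83 to 9.18 in T cell ICA mice, against 8.95 to 9.22 in marrow-only ICA mice, and from 9.03 to 9.24 in T cell vehicle mice, against 9.03 to 9.21 in marrow-only vehicle mice. Its groups overlapped, and the differences were -0.08 ± 0.07 and -0.04 ± 0.08 (adjusted p = 0.682 and 0.899). Axin2, a scaffold of the complex that degrades beta-catenin and a feedback target of Wnt, had 8.72, 8.32, 8.71, 8.81 and 8.66 in T cell ICA mice, against 8.97, 8.72, 8.46, 8.88 and 8.60 in marrow-only ICA mice. It had 8.51, 8.54, 8.46 and 8.51 in T cell vehicle mice, against 8.89, 8.62, 8.57 and 8.72 in marrow-only vehicle mice. The vehicle groups of Axin2 did not overlap, as for 4.21% of all genes, but the fit did not call the difference of -0.19 ± 0.11 (-0.43 to 0.04, adjusted p = 0.494). Under ICA the Axin2 groups overlapped and the difference was -0.08 ± 0.10 (adjusted p = 0.747). A second Axin2 probe set had a mean of 7.10 and a correlation of 0.55 with the one used. It averaged 7.09, 6.95, 7.23 and 7.09 in T cell ICA, T cell vehicle, marrow-only ICA and marrow-only vehicle mice.

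Of the transcription factors, Ascl2, a Wnt target that maintains the stem cell state, ranged from 7.50 to 7.92 in T cell ICA mice, against 7.33 to 7.75 in marrow-only ICA mice. It ranged from 7.48 to 7.75 in T cell vehicle mice, against 7.39 to 7.80 in marrow-only vehicle mice. The differences were 0.10 ± 0.10 and 0.05 ± 0.11 (adjusted p = 0.679 and 0.905). The groups overlapped throughout, and neither difference was in the direction of Prom1 and Lgr5. Sox9, needed for Paneth cell formation, had 9.93, 9.20, 9.56, 9.75 and 9.65 in T cell ICA mice, against 9.82, 10.09, 9.71, 9.67 and 9.85 in marrow-only ICA mice. It ranged from 9.63 to 9.87 in T cell vehicle mice, against 9.61 to 9.92 in marrow-only vehicle mice. The Sox9 differences were -0.21 ± 0.11 and -0.01 ± 0.12 (adjusted p = 0.343 and 0.990), with T cell ICA mouse 2 the lowest of all 18 mice.

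The secreted members did not pass either. Olfm4, a secreted glycoprotein abundant in crypt base stem cells, had 10.81, 10.67, 10.87, 11.24 and 10.73 in T cell ICA mice, against 11.10, 10.85, 10.68, 10.88 and 10.84 in marrow-only ICA mice. It had 11.01, 10.49, 10.75 and 10.74 in T cell vehicle mice, against 10.84, 11.15, 10.94 and 10.84 in marrow-only vehicle mice. The Olfm4 groups overlapped, with differences of -0.005 ± 0.11 (-0.23 to 0.22, adjusted p = 0.991) under ICA and -0.19 ± 0.12 (-0.44 to 0.06, adjusted p = 0.546) under vehicle. The ICA interval leaves room for a modest change in either direction, and the vehicle interval mainly for a fall. Neither reaches the Prom1 estimate of the same comparison (-0.81 and -0.65). The vehicle interval does overlap that of Prom1 (-0.89 to -0.40). Smoc2, a secreted matricellular protein, ranged from 8.89 to 9.21 in T cell ICA mice, against 8.78 to 8.99 in marrow-only ICA mice, and from 8.80 to 9.12 in T cell vehicle mice, against 8.79 to 8.94 in marrow-only vehicle mice. Its differences were 0.17 ± 0.07 and 0.12 ± 0.08 (adjusted p = 0.235 and 0.613), and 0.14 ± 0.05 (adjusted p = 0.131) for the mean, above zero where Prom1 and Lgr5 were below it.

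Lrig1, a membrane protein that restrains ErbB receptors, ranged from 9.26 to 9.66 in T cell ICA mice, against 9.38 to 9.65 in marrow-only ICA mice. It ranged from 9.31 to 9.47 in T cell vehicle mice, against 9.42 to 9.59 in marrow-only vehicle mice. The groups overlapped and the differences were -0.09 ± 0.08 and -0.11 ± 0.09 (adjusted p = 0.599 and 0.645). Bmi1, a Polycomb protein once used as a mark of slow-cycling cells, was the dimmest member at a mean of 5.98, a level above 33.3% of genes. It ranged from 5.80 to 6.33 in T cell ICA mice, against 5.78 to 6.06 in marrow-only ICA mice, and from 5.81 to 6.20 in T cell vehicle mice, against 5.38 to 6.15 in marrow-only vehicle mice. Its differences were 0.16 ± 0.13 and 0.21 ± 0.14 (adjusted p = 0.590 and 0.597). For the mean of both treatments Bmi1 was called in 1 alternative, without the 3 arrays and T cell vehicle mouse 1, where it was higher by 0.32 (adjusted p = 0.0381).

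**Figure D2:**
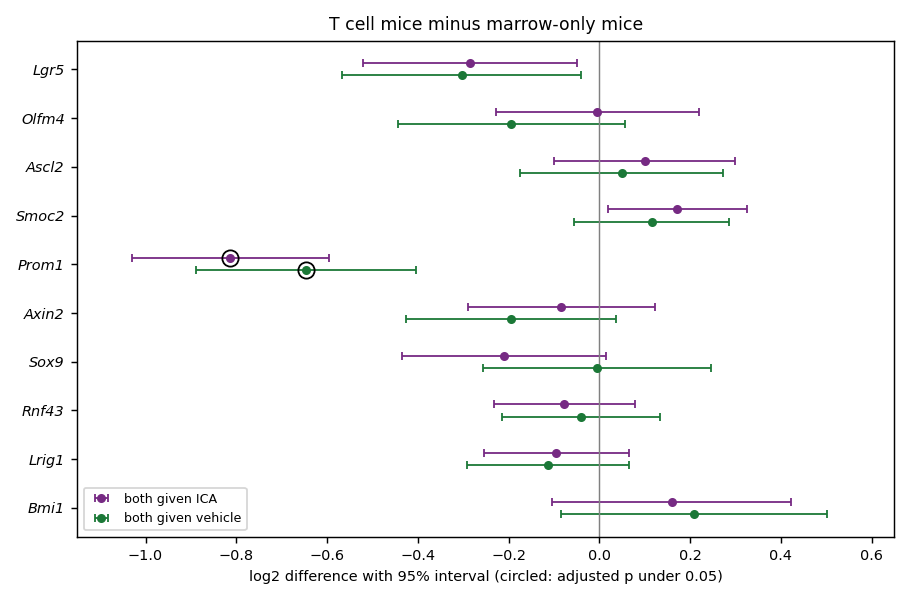
Difference of T cell mice minus marrow-only mice for the 10 genes (x axis, log2, with the 95% interval from limma), with both groups given ICA or both given vehicle. Circles mark an adjusted p under 0.05; only Prom1 is circled, at -0.81 and -0.65, while the Lgr5 intervals lie below zero without a circle.

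As a list, 7 of the 10 members lay below zero under ICA, 7 under vehicle and 7 for the mean of both. The median difference of the members was -0.08, -0.08 and -0.10 in these comparisons, against -0.01, 0.01 and -0.001 for all genes. At an unadjusted p under 0.05 there were 3, 2 and 3 members, against 16.6%, 13.0% and 19.9% of all genes. In the mean of both treatments 2 members were called, Prom1 and Lgr5, both lower, where 3.62% of all genes were called lower. The 2 comparisons use different mice, and the mean of both reuses all of them, so it adds no independent evidence.

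The contrast of Prom1 with Lgr5 was followed within each mouse, as the change of each from its mean in marrow-only vehicle mice. It is a description without a test, because the pair was chosen with these values known. In T cell ICA mice Prom1 changed by -0.54, -0.76, -0.61, -0.61 and -0.80 and Lgr5 by 0.04, -0.57, -0.33, -0.20 and -0.65. In T cell vehicle mice Prom1 changed by -0.66, -0.58, -0.72 and -0.63 and Lgr5 by -0.19, -0.51, -0.45 and -0.06. Prom1 was thus low in all 9 T cell mice by much the same amount, whereas Lgr5 spread from no change to most of the change in Prom1. Prom1 minus Lgr5 averaged -0.32 (-0.59 to -0.15) in T cell ICA mice and -0.34 (-0.56 to -0.08) in T cell vehicle mice, against 0.21 (-0.16 to 0.43) in marrow-only ICA mice and 0.00 (-0.20 to 0.14) in marrow-only vehicle mice. The ranges of the T cell and marrow-only groups overlap. Against each of the other 8 members, the change of Prom1 lay below that of the other gene in 9 of 9 T cell mice, with a mean gap of -0.88 to -0.45 in the T cell groups. Prom1 was singled out with these values known, so this too is a description.

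**Figure D3:**
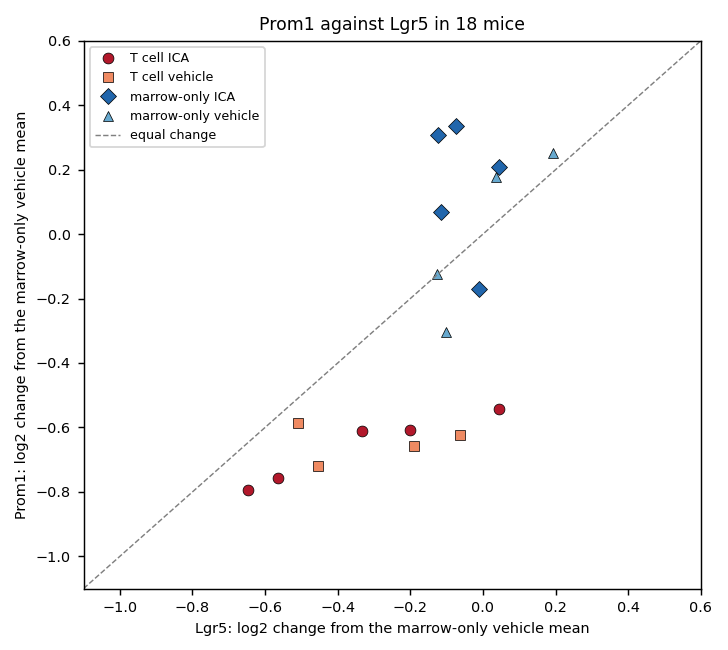
Log2 change of Prom1 (y axis) against that of Lgr5 (x axis) in each of the 18 mice, both relative to the mean of marrow-only vehicle mice. The dashed line marks equal change; the 9 T cell mice lie below it, at Prom1 changes of -0.80 to -0.54 over a wider range of Lgr5 changes.

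ICA was set against vehicle to ask whether it altered these genes. No member was called in T cell mice, in marrow-only mice, in the mean of both grafts or in the interaction, and by limma 0 members reached even an unadjusted p under 0.05 in any of the 4. Among all genes 0.0135%, 0.00451%, 0.0135% and 0% were called, while 1529, 1669, 1715 and 1482 reached an unadjusted p under 0.05. Prom1 differed by -0.02 ± 0.11 (-0.25 to 0.21) between T cell ICA and T cell vehicle mice and by 0.15 ± 0.11 (-0.08 to 0.38) between marrow-only ICA and marrow-only vehicle mice. The interaction for Prom1 was -0.17 ± 0.16 (-0.49 to 0.16, adjusted p = 0.864), so a different fall of Prom1 with and without ICA was not shown. Both ends of the interval in T cell mice were smaller in size than the T cell differences.

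Lgr5 differed by -0.04 ± 0.12 (-0.29 to 0.21) in T cell mice given ICA and by -0.06 ± 0.12 (-0.31 to 0.19) in marrow-only mice given ICA, against vehicle. The largest ICA differences among the members in T cell mice were -0.15 ± 0.11 for Sox9 (-0.38 to 0.09) and 0.14 ± 0.10 for Axin2 (-0.08 to 0.36). Over the 10 members the median ICA difference was 0.03 in T cell mice and 0.03 in marrow-only mice, against -0.01 and 0.01 over all genes. These misses do not show that ICA left the genes unaltered. Differences within the intervals remain compatible with these values, and the size of difference that these numbers of mice could detect was not computed.

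**Figure D4:**
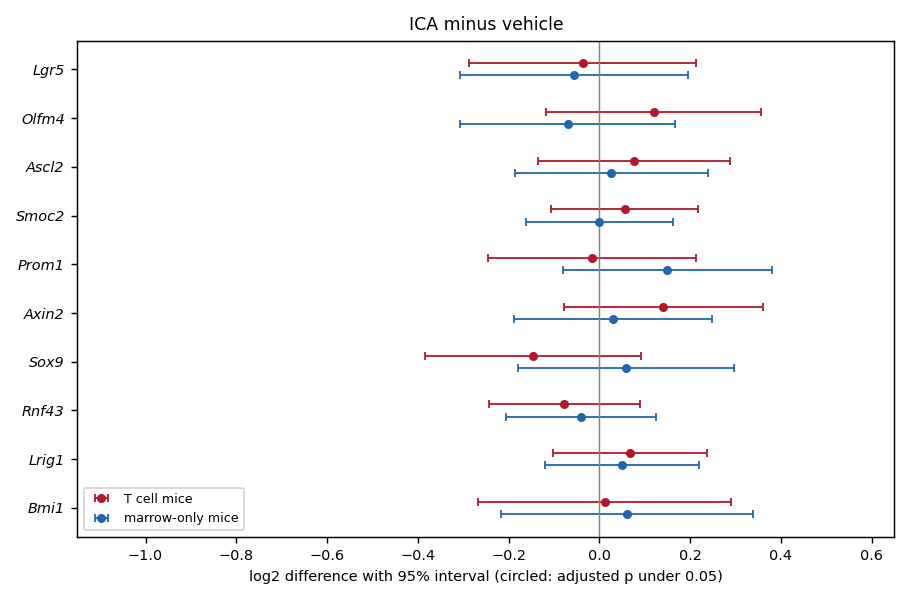
Difference of ICA minus vehicle for the 10 genes (x axis, log2, with the 95% interval from limma), in T cell mice and in marrow-only mice. All 20 intervals include zero and none is circled as called.

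Variation of the members with each other within groups was examined by correlation. Over 45 pairs of members, the deviations of the 18 mice from their group means were correlated, with 100000 permutations within groups. No pair passed after adjustment, 4 had an unadjusted permutation p under 0.05, and 34 of 45 correlations were above zero. Lgr5 and Prom1 had r = 0.42 (permutation p = 0.0294, adjusted p = 0.440) and rho = 0.43. They had r = 0.34 without the 2 mice farthest from the median in Lgr5, and 0.52 without the 3 arrays low on the second component. The closest pair, Axin2 and Rnf43, had r = 0.67 (permutation p = 0.00596, adjusted p = 0.211) and rho = 0.57. Its r was 0.29 without the 2 mice farthest from the median in Axin2, a choice that narrows the range of Axin2. Without the 3 arrays it was 0.69.

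The genes with levels most like Prom1 over the 18 mice were Stom (r = 0.97), Atp10b (0.97), Chst4 (0.97), Nxf7 (0.96) and Fndc3b (0.95). All 5 were lower in T cell mice, Chst4 by -1.99 under ICA and -1.28 under vehicle and Fndc3b by -0.38 and -0.35, the largest and the smallest under ICA. Their likeness to Prom1 includes the group difference itself. With group means removed, Pde11a, Ceacam1, Smad4, Chst4 and Tmprss11e were closest, at r = 0.89 down to 0.86. For Lgr5 the closest genes were Clca3b (r = 0.87), Klf12 (0.87), Reg3g (0.86), Slc25a35 (0.86) and Gm16294 (0.84). With group means removed they were 4930570E03Rik, Olfr794, Clca3b, Dgat2l6 and Adgrf4, at r = 0.88 down to 0.81. 4930570E03Rik, Olfr794, Dgat2l6 and Adgrf4 were dim, at means of 4.76, 4.86, 4.97 and 4.96, below the lowest array median of 6.47. Gm16294 (5.48) and Tmprss11e (5.02) also lay below it. The genes on these lists were picked for the highest r among all genes, a choice in which chance alone can give high values. These correlations were not tested. No gene was on the lists of both Prom1 and Lgr5, and the correlation between Prom1 and Lgr5 levels themselves was 0.70.

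Beyond the 10, 23 of 25 other crypt base and Wnt target genes were measured. Under ICA 0 were called higher and 5 lower, under vehicle 0 were called, and for the mean of both 1 was called higher and 5 lower, against 3.12%, 1.47% and 7.21% of all genes called. No gene of the list was called in the interaction, so a fall limited to ICA was not shown. The median of the list was 0.02, -0.07 and -0.03, near the all-gene medians. Lgr4, the relative of Lgr5 found throughout the epithelium, averaged 10.82 ± 0.07 in T cell ICA mice, against 11.34 ± 0.18 in marrow-only ICA mice, a fall of 0.52 ± 0.09 (adjusted p = 0.00161). Aqp4, a water channel of the crypt base, averaged 7.44 ± 0.12 in T cell ICA mice, against 8.57 ± 0.49 in marrow-only ICA mice (fall of 1.12 ± 0.18, adjusted p = 0.00104). Tcf7l2, the main TCF factor of the epithelium, fell by 0.39 ± 0.09 (adjusted p = 0.0157), and Myc and Ccnd1, growth genes downstream of Wnt, by 0.39 and 0.59 (adjusted p = 0.0325 and 0.0393). Lgr4 and Aqp4 kept these calls when any 1 mouse was left out, Tcf7l2 in 17 of 18 such omissions, Myc in 12 and Ccnd1 in 11. These tallies include the vehicle mice, whose omission cannot move a difference under ICA. For the mean Myc and Ccnd1 kept their calls in 5 each. Fstl1, a secreted protein of stromal cells, was the 1 that rose, by 0.32 ± 0.06 for the mean (adjusted p = 0.00228). Under vehicle Aqp4, Lgr4 and Tcf7l2 differed by -0.65, -0.27 and -0.37 and Fstl1 by 0.34 over the 18 mice. These vehicle differences were not called by limma (adjusted p of 0.0573 to 0.195). With the 3 arrays low on the second component left out, 1 rose and 3 fell under vehicle (Fstl1, and Aqp4, Lgr4 and Tcf7l2), 1 rose and 5 fell under ICA, and 2 rose and 5 fell for the mean.

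Of reserve and regenerating crypt genes 9 of 12 were measured, and 2 were called under ICA, 0 under vehicle and 2 for the mean, against 3.12%, 1.47% and 7.21% of all genes. Clu, a mark of revival stem cells after injury, fell by 0.77 ± 0.15 under ICA (adjusted p = 0.00661) and by 0.68 ± 0.11 for the mean (adjusted p = 0.000887). Anxa1, expressed in regenerating epithelium and in leukocytes, rose by 0.39 ± 0.10 (adjusted p = 0.0460, kept in 4 of 18 omissions) and 0.40 ± 0.08 (adjusted p = 0.00294, kept in all 18). No other gene of that list passed over the 18 mice. Without the 3 arrays Clu fell by 0.68 and Anxa1 rose by 0.43 under vehicle too (adjusted p = 0.0286 and 0.0348), and Ccn2, a secreted matricellular protein, rose by 0.35 for the mean (adjusted p = 0.0234). Hopx, another mark of reserve cells, differed by -0.03 ± 0.06 (adjusted p = 0.870) for the mean.

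The niche supplies Wnt and R-spondin ligands and BMP inhibitors, and 25 of 26 genes of a wider niche list were measured. That list also holds BMP, Notch and EGF family ligands, Wnt inhibitors and other niche genes, so its counts mix signals of different kinds. Under ICA 2 rose and 1 fell, under vehicle 2 rose and 0 fell, and for the mean 5 rose and 2 fell, against 3.12%, 1.47% and 7.21% of all genes called. Grem1, a BMP inhibitor made by cells beneath the crypts, averaged 10.29 ± 0.27 in T cell ICA mice, against 9.79 ± 0.16 in marrow-only ICA mice, and 10.33 ± 0.17 in T cell vehicle mice, against 9.68 ± 0.03 in marrow-only vehicle mice. Its rise was 0.50 ± 0.11 (adjusted p = 0.0124) and 0.66 ± 0.12 (adjusted p = 0.00867), and it kept both calls when any 1 mouse was left out. Rspo3, an R-spondin of the crypt stroma, rose by 0.54 ± 0.13 under vehicle (adjusted p = 0.0332, kept in 11 of 18 omissions) and by 0.39 ± 0.08 for the mean (adjusted p = 0.00607, kept in all 18). The BMP inhibitor Chrdl1 rose by 0.35 ± 0.08 for the mean (adjusted p = 0.0137, kept in all 18) and by 0.41 under ICA (adjusted p = 0.0491, kept in 4), and Foxl1, a factor of the mesenchyme beneath the crypts, and Dkk3, of the Dickkopf family, rose by 0.25 and 0.19 (adjusted p = 0.0420 and 0.0432, kept in 6 and 5 of 18 omissions). The Notch ligand Dll4, on Paneth and endothelial cells, fell by 0.29 ± 0.07 for the mean (adjusted p = 0.0127, kept in all 18) and by 0.37 under ICA (adjusted p = 0.0304, kept in 12). Wnt3, the Wnt ligand of Paneth cells, fell by 0.41 ± 0.11 for the mean (adjusted p = 0.0225), a call lost without the 3 arrays (adjusted p = 0.0658). Without those arrays 7 genes of this list rose under ICA, and for the mean 6 rose and 1 fell. The 7 were Grem1, Chrdl1, Wnt5a, Rspo3, Foxl1 and the BMP ligands Bmp2 and Bmp5. More of all genes were called without those arrays too, so the larger count is not particular to this list.

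**Figure D5:**
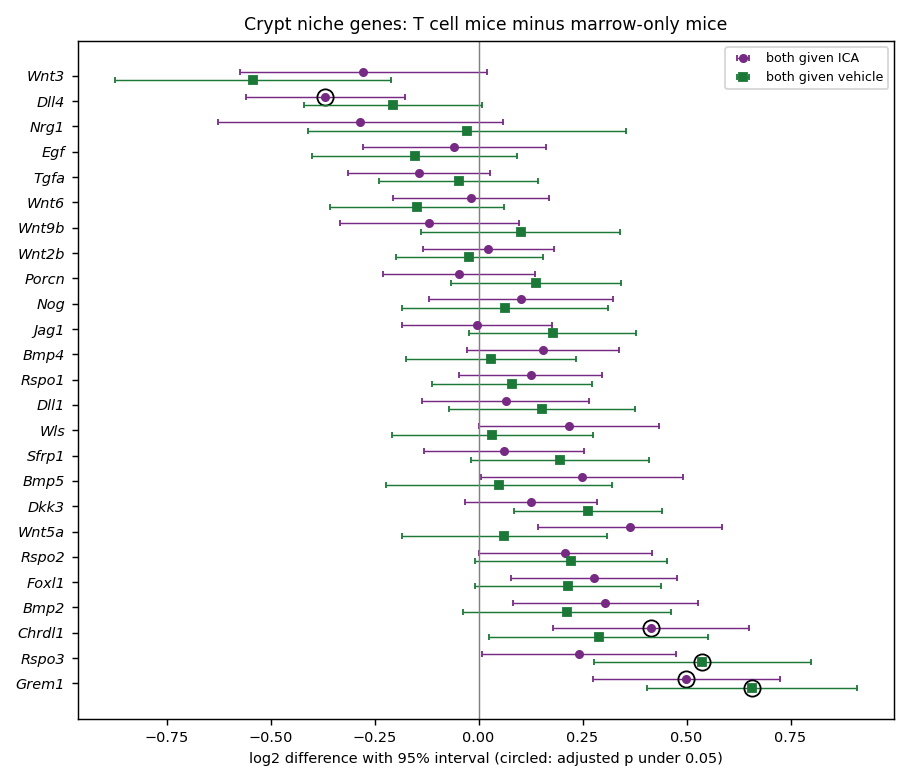
Difference of T cell mice minus marrow-only mice for 25 niche genes (x axis, log2, with the 95% interval from limma), with both groups given ICA or both given vehicle. Circles mark an adjusted p under 0.05; Grem1 is circled under both treatments, at 0.50 and 0.66, Rspo3 under vehicle, and Chrdl1 and Dll4 under ICA.

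Markers of other cell types moved with the same comparisons, and their part in the stem cell gene results was not tested. Of 10 Paneth cell genes, whose cells neighbour the stem cells, 2 fell under ICA, 3 under vehicle and 7 for the mean, against 3.12%, 1.47% and 7.21% of all genes called in either direction. These shares also apply to the lists that follow, but not to counts without the 3 arrays. Under vehicle Mmp7 and Habp2 kept their calls in 12 of 18 omissions of 1 mouse and Pla2g2a in 4, under ICA Mmp7 and Pla2g2a in 15, and for the mean Defa24 in 7, Lyz1 in 16 and the other 5 in all 18. With the 3 arrays left out 3 fell under ICA. Their list mean was 11.5 ± 0.50 in T cell ICA mice, against 12.2 ± 0.15 in marrow-only ICA mice, and 10.7 ± 1.56 in T cell vehicle mice, against 12.3 ± 0.09 in marrow-only vehicle mice. The mean ranged from 10.8 to 12.0 in T cell ICA mice and from 8.65 to 12.4 in T cell vehicle mice, against 12.0 to 12.3 in marrow-only ICA mice and 12.2 to 12.4 in marrow-only vehicle mice. Of 10 smooth muscle genes 7 were called higher under ICA, 0 under vehicle and 8 for the mean, and of 10 fibroblast genes 5, 1 and 5. Under vehicle 10 smooth muscle and 8 fibroblast genes lay above zero, with medians of 0.27 and 0.20, against 0.01 over all genes. No gene of either list was called in the interaction. Of the 7 smooth muscle calls under ICA 4 held in all 18 omissions and 3 in 12. Without the 3 arrays 8 smooth muscle and 6 fibroblast genes rose under ICA, and 0 and 2 under vehicle. The smooth muscle list mean ranged from 10.37 to 10.76 in T cell ICA mice, against 10.04 to 10.29 in marrow-only ICA mice. It ranged from 10.36 to 10.62 in T cell vehicle mice, against 10.07 to 10.28 in marrow-only vehicle mice. T cell genes rose in both comparisons, 2 of 10 under ICA (with Cd4 falling) and 4 under vehicle, and of 7 B and plasma cell genes 3 and 2 fell. Cd4 kept its call in 7 of 18 omissions under ICA, and under vehicle Cd3e did in 9, Cd79a in 12 and Cd79b in 5. Leaving out the 3 arrays, 3 and 5 T cell genes rose, and 4 and 3 B and plasma cell genes fell. Of 17 cell cycle genes 0 were called under vehicle or for the mean, and 1, Birc5, a survivin needed for cell division, fell by 0.54 ± 0.14 under ICA (adjusted p = 0.0384, kept in 11 of 18 omissions). All 17 lay below zero under ICA and for the mean and 14 did under vehicle, with medians of -0.19, -0.14 and -0.10, against -0.01, -0.001 and 0.01 over all genes. Birc5 also fell for the mean once the 3 arrays were left out, by 0.33 (adjusted p = 0.0217).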

How the data were processed

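Ileal RNA of 18 mice was measured on Affymetrix whole-transcript arrays, 1 per mouse. The deposited values are log2 signals made by the authors with RMA (Partek and GenomeStudio are also named), per the submitters' processing notes; the log base was read from the values. Scan dates, slides and background settings are not given here, so no batch could be tested. No further normalization or filter was applied. Of 41345 probe sets, 23521 had 1 gene symbol, 1814 several and 16010 none listed, which gave 22180 genes.

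A single limma model (version 3.58.1, R 4.3.3) held 1 coefficient per group and covered all genes and arrays, with a variance trend on level (14 residual and 6.1 prior degrees of freedom). Tests were two-sided, with Benjamini-Hochberg adjustment over 22180 genes, and 0.05 was the threshold. Differences are T cell minus marrow-only or ICA minus vehicle, ± SE. The fit was tested on simulated data.

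The members and the 201 entries of the other gene lists were chosen with earlier results of these data known. The text names all members, the called genes of a list or up to 2 with the smallest p, and the 5 genes most like Prom1 and Lgr5. Hopx was chosen after its values were seen. Promoters are from RefSeq. Over all genes, mice with the same number showed little common deviation. Of 25 same-number pairs 3 had a correlation over 0.1 (mean 0.01, highest 0.20), so no block was used. On the second principal component, however, mouse 1 was the lowest of its group in T cell ICA (-19.8), T cell vehicle (-8.38) and marrow-only ICA mice (-20.5). In marrow-only vehicle mice the lowest was mouse 3 (-19.5), with mouse 1 at -10.1. Whether mice with the same number shared a batch was not tested. Alternatives covered normalization, filters, probe set choice, variance settings, the replicate block, each mouse left out and, added after seeing the data, the other lists without 3 arrays low on the second principal component, and the members without these and T cell vehicle mouse 1.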

Additional observations from a re-analysis of the deposited data

Results flagged for a closer look

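Of 40 checks of a group of 4 or 5 mice, 1 found a mouse far from the others of its group. Chance flags about 1 in 20 such groups. Rnf43, which encodes a ubiquitin ligase that removes Frizzled receptors, was at 9.03 in marrow-only vehicle mouse 2, the lowest of 4 mice, while the nearest mouse was at 9.18. The gap was 0.871 of the range of the group, above the critical 0.829.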

How the results depend on the processing

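Over 2133 values of single members under alternatives, 2035 kept their direction and their side of the threshold, 13 lost a call, 2 gained one, 83 changed sign without any call involved, and 0 reversed with a call. All of the lost calls were of Lgr5 in the mean of both treatments, and the gained calls were of Lgr5 under ICA and of Bmi1 in the mean, the Bmi1 call in a setting added after seeing the data. The number of members called there was 2, and it was 1 under quantile normalization, 1 with the probe sets of a gene averaged, 1 with all probe sets tested and 1 with a prior variance without trend. Leaving out 1 mouse at a time gave 1 to 2 members for that mean and 1 to 2 for T cells against marrow only under ICA. With mouse number as a replicate block the counts were 1 under ICA, 1 under vehicle and 2 for the mean, as without it, and Prom1 kept its calls (adjusted p = 0.000693, 0.0110 and 5.44e-05) and the block changed no other member's call. The number of called genes over the whole array was less stable, at 321 to 1561 under ICA against 693 as reported, 94 to 1074 under vehicle against 327, and 1156 to 2543 for the mean against 1599. For ICA against vehicle it ran from 1 to 49 in T cell mice against 3, from 0 to 119 in marrow-only mice against 1, from 1 to 106 for the mean of both grafts against 3, and from 0 to 3 for the interaction against 0. The cause was not tested. With 4 or 5 mice in a group, small differences may be missed, and signal over background could not be assessed from the deposited values. The share of promoters with the TCF motif was 16.0% for 6 letters and 3.73% for CTTTGAT.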

Other observations

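Elf3, an epithelial transcription factor, was the 1 of 10 epithelial genes that passed, and it fell by 0.65 ± 0.08 under ICA (adjusted p = 0.000173), 0.39 ± 0.09 under vehicle (adjusted p = 0.0294, kept in 12 of 18 omissions of 1 mouse) and 0.52 ± 0.06 for the mean of both (adjusted p = 2.15e-05). Of all genes 3.12% were called under ICA, 1.47% under vehicle and 7.21% for the mean, in either direction. By limma 0 of 8 ileal enterocyte genes passed over the 18 mice, with medians of 0.19 under ICA and 0.16 for the mean. Without the 3 arrays low on the second principal component 2 rose, Fabp2, a fatty acid binding protein, by 0.88 under ICA and 0.63 for the mean (adjusted p = 0.00187 and 0.00144), and Alpi, an alkaline phosphatase, by 0.87 and 0.54 (adjusted p = 0.00479 and 0.0106), and the list medians were 0.31 and 0.29. Without them 1 more epithelial gene passed under ICA, Vil1 (0.25, adjusted p = 0.0486), and 1 more for the mean, Cdx1 (-0.25, adjusted p = 0.0444). Of 10 Notch and lineage regulators 1 passed, Lfng, a modifier of Notch receptors, which rose by 0.36 ± 0.09 for the mean (adjusted p = 0.0225), and without the 3 arrays also by 0.50 under vehicle (adjusted p = 0.0470). Of 8 tuft cell genes 1 passed for the mean, Alox5ap, a partner of leukotriene synthesis, which rose by 0.54 ± 0.12 (adjusted p = 0.00575).

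Of 10 neutrophil genes, Retnlg rose under vehicle by 2.20 ± 0.39 (adjusted p = 0.00565), and none passed under ICA. Of 6 endothelial genes 2 rose under ICA, and Vwf, von Willebrand factor, was higher by 0.39 ± 0.09 (adjusted p = 0.0191, kept in 16 of 18 omissions). The other was Cdh5, a cadherin of endothelial junctions, higher by 0.25 (adjusted p = 0.0491), a call kept in 3 of 18 omissions and lost without the 3 arrays (adjusted p = 0.0778), where Emcn, an endothelial sialomucin, passed instead (0.51, adjusted p = 0.00689). Of 7 enteric glia and neuron genes, Ret, the receptor for glial-derived growth factors, fell by 0.46 ± 0.10 under ICA (adjusted p = 0.00964). In ICA against vehicle, no gene of any of these lists was called over the 18 mice, and without the 3 arrays 1 was, Tubb3, a neuronal tubulin, higher by 0.37 for the mean of both grafts (adjusted p = 0.0438).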
